A study of Mus musculus with 6 samples.

Results

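The 10 AP-1 and stress transcription factors *Fos*, *Fosb*, *Fosl1*, *Fosl2*, *Jun*, *Junb*, *Jund*, *Atf3*, *Batf* and *Maff* were followed in basal keratinocytes of E16.5 mouse embryos. They were chosen by name, as the rows of the raw count table whose Ensembl gene identifier belongs to 1 of these symbols, and all 10 were found among 55536 genes listed. Bulk RNA-seq gave 3 Ctrl and 3 TKO libraries. All 6 came from embryos that carried Suv39h1 f/f, Suv39h2-/- and Setdb1 f/f and had been exposed to tamoxifen, so both groups lacked functional *Suv39h2*. TKO embryos carried K14CreERT2 in addition, a recombinase driven by the keratinocyte promoter K14, and Ctrl embryos did not. The litters are listed as mosaic in the study, so recombination is not taken to have reached every TKO cell. Dorsal skin had been digested with collagenase and trypsin, and basal cells were sorted as Epcam+ and Cd49f+ before RNA extraction.

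AP-1 is a dimer of basic leucine zipper (bZIP) proteins, usually 1 partner of the Fos family with 1 of the Jun family. Fos proteins do not pair with themselves, whereas Jun proteins can, and ATF, BATF and small Maf proteins join the same network and shift which DNA sites are bound. Many of these genes are immediate early genes, whose short-lived mRNA is switched on within minutes by growth factors, stress, wounding or the release of cells from a tissue. In the epidermis AP-1 is known for its part in growth, wound repair and the expression of keratin and cornified envelope genes. The comparison of TKO with Ctrl addressed whether loss of the H3K9 methyltransferases altered these mRNAs.

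Ctrl replicates 1, 2 and 3 held 102159175, 136515436 and 104422632 counts on genes, and TKO replicates 1, 2 and 3 held 116308383, 108957256 and 118413082. A gene with 3 counts, taken as the smallest detectable level, came to between 0.022 and 0.0294 CPM (counts scaled to library size). This floor was scaled to the totals given above, without the TMM scaling of the other CPM values. It covers counting error only. The deleted genes were read first. *Setdb1* CPM was 125.5, 117.9 and 121.1 in Ctrl and 95.3, 62.3 and 74.9 in TKO, lower in all 3 TKO libraries (log2 fold change -0.65 ± 0.16 SE, edgeR quasi-likelihood adjusted p = 0.286). *Suv39h1* CPM was 88.7, 78.5 and 84.0 in Ctrl and 75.6, 68.9 and 89.4 in TKO, and the groups overlapped. *Suv39h2* CPM was 15.9, 17.1 and 15.6 in Ctrl and 18.9, 16.0 and 17.5 in TKO. Counts per whole gene do not separate floxed exons from the rest. Ctrl replicate 1 and TKO replicate 2 carried the letter F in their library labels and had 2638 and 2699 CPM of *Xist*, while the 4 libraries with the letter M had at most 0.799 CPM.

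The sort was reflected in the keratinocyte markers. *Krt5*, the most abundant of 8 basal markers, had 12320, 12050 and 8179 CPM in Ctrl and 6994, 8037 and 9022 CPM in TKO, and the groups overlapped. *Krt15*, another basal keratin, had 2716, 2579 and 2089 CPM in Ctrl and 900.8, 792.0 and 1573 CPM in TKO, so every TKO library was below every Ctrl library, with a log2 fold change of -1.18 ± 0.26 (edgeR adjusted p = 0.185). Differentiating keratinocyte markers were also abundant, with *Krt1*, a suprabasal keratin, at 9973, 9778 and 10070 CPM in Ctrl and 8516, 6100 and 6305 CPM in TKO. Fibroblast markers were present in every library, and none of the 7 was at 0. Since these are bulk samples, fewer cells of a type and less RNA per cell cannot be told apart.

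Between genes, levels were compared as CPM per kilobase of annotated exon, averaged over the 6 libraries. *Fos* was the most abundant factor at 133.6 CPM per kb, followed by *Jun* at 89.9 and *Fosl2* at 61.1. *Atf3* had 31.5, *Junb* 27.3 and *Fosb* 17.8 CPM per kb. *Maff* had 2.87, *Fosl1* 1.22 and *Batf* 0.346 CPM per kb. *Jund* is left out of this order, for reasons given with its counts. *Fos* and *Jun*, *Jun* and *Fosl2*, *Atf3* and *Junb*, *Junb* and *Fosb*, and *Fosl1* and *Batf* overlapped in their ranges over libraries. Within libraries *Junb* was above *Fosb* in all 6. The order of the other neighbouring pairs named here turned between libraries and was not beyond their spread. *Fosl2* stood clear of *Atf3*, with a lowest library at 47.5 against a highest at 43.8 CPM per kb. *Fosb* likewise stood clear of *Maff*, and *Maff* of *Fosl1*. On the scale of CPM per gene, which favours long transcripts, *Fosl2* was the highest factor in all 6 libraries, as its annotated exons span 10397 bases against 2358 for *Fos*. All these levels are those of cells digested and sorted before RNA extraction, and the part of that handling in them was not tested.

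The stretches of promoter shown here belong to the most abundant Fos, Jun and ATF genes and to *Maff*, whose library pattern was closest to that of *Jun*. Each is the 150 bases before a RefSeq transcription start on GRCm38.p6, written 5′ to 3′ on the strand of the gene, with matches to the motifs searched in capitals.
Fos, chr12:85473740-85473889, plus strand: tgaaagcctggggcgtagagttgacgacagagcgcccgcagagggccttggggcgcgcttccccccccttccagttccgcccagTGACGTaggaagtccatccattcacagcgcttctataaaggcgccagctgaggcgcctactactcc
Jun, chr4:95052223-95052372, minus strand: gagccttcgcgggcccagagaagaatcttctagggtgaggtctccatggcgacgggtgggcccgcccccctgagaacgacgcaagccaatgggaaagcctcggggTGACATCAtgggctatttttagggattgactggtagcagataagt
Atf3, chr1:191183334-191183483, minus strand: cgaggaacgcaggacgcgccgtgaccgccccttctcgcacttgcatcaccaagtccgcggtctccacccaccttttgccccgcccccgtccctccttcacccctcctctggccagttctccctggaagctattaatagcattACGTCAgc
Maff, the second start, chr15:79347370-79347519, plus strand: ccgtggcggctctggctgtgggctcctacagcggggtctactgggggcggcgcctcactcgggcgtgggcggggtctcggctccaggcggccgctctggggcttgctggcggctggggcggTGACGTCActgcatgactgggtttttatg
Maff, the third start, chr15:79348252-79348401, plus strand: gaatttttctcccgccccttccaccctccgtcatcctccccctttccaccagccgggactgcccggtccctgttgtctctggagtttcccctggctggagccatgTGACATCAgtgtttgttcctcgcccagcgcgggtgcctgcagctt

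Motifs were searched on both strands in the window from 250 bases before to 50 bases after each start in a RefSeq promoter table. *Fosl1* had no window in the table used here, so 9 of the 10 factors were searched. The AP-1 site TGACTCA was found in none of these windows and lies in 5.20% of all 32851 promoter windows of the same length. The cyclic AMP response element (CRE) TGACGTCA was found once, at bases -29 to -22 of the second *Maff* start, and lies in 1.79% of all windows. The CArG box, the site of serum response factor, had no match in these windows and lies in 1.63% of all windows. Sites more than 250 bases before a start, of *Fos* or any other factor, were not searched. The lack of a match therefore does not mean that a promoter has no such site. A pair of further motifs was added after the data had been seen. The CRE core TGACGT, which is also contained in the full CRE, lay at bases -66 to -61 of *Fos*, -8 to -3 of *Atf3* and -98 to -93 of *Batf*, and lies in 7.51% of all windows. The variant TGACATCA lay at bases -45 to -38 of both *Jun* and the third *Maff* start and lies in 3.62% of all windows. This variant was chosen as the form known from *Jun*, and *Maff* had 3 windows searched, so nothing is read from its presence in both. Nothing is read from the matches of the CRE core either, and the shares over all windows were not matched for base content. These matches describe letters in a window and were not measured as bound sites.

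Of the 9 factors that passed the filter on low counts, none was called in TKO against Ctrl. The call was an adjusted p under 0.05 by edgeR's quasi-likelihood test with Benjamini-Hochberg adjustment over 20622 genes, which called 27 genes or 0.131% (45 genes or 0.218% with the replicate number as a block). None of the 9 had an unadjusted p under 0.05, against 6.08% of all genes tested, and none had groups that did not overlap, against 11.5% of all genes tested. The log2 fold change was positive for 4 factors and negative for 5, with a median of -0.06 beside 0.01 for all genes tested. All 9 adjusted p-values rounded to 1.

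Of the Fos family, *Fos* is the classic immediate early partner of Jun. Its CPM was 311.8, 260.8 and 297.1 in Ctrl and 398.2, 391.3 and 230.4 in TKO. TKO replicates 1 and 2 lay above every Ctrl library and TKO replicate 3 below every one, so the groups overlapped. TKO differed from Ctrl by a log2 fold change of 0.23 ± 0.21 (SE), with a 95% interval from -0.23 to 0.69 (edgeR unadjusted p = 0.295, adjusted p = 1). That interval covers TKO to Ctrl ratios from 0.850 to 1.62. Each library was also left out in turn. Without TKO replicate 3, the TKO library that lay below Ctrl, the log2 fold change of *Fos* was 0.44 ± 0.14. Its unadjusted p was 0.0104 and its adjusted p 0.270 by edgeR's quasi-likelihood test. The log2 fold change was 0.09 ± 0.22 without TKO replicate 1 and 0.12 ± 0.23 without TKO replicate 2.

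*Fosb*, which encodes a second full-length activator and a shorter splice form, had 151.5, 71.9 and 93.2 CPM in Ctrl and 136.0, 135.2 and 78.0 CPM in TKO. Both groups spread widely, and Ctrl replicate 1 was the highest of all 6. A log2 fold change of 0.14 ± 0.28 (SE) was fitted, with a 95% interval from -0.50 to 0.78 (edgeR unadjusted p = 0.632, adjusted p = 1).

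*Fosl1* encodes Fra-1, a Fos protein without the C-terminal transactivation domain of Fos that is known for its part in migrating and wounded keratinocytes. It was low, with 3.97, 0.457 and 2.44 CPM in Ctrl and 2.81, 3.48 and 1.75 CPM in TKO. Ctrl replicate 2 stood far below the other 5 libraries, with 59 counts against 393 in Ctrl replicate 1, and the 3 TKO libraries lay within the Ctrl range. The difference in TKO was 0.23 ± 0.63 (SE) on the log2 scale, with a 95% interval from -1.17 to 1.63 (edgeR unadjusted p = 0.721, adjusted p = 1), the widest of the 9 factors. It was 0.89 without Ctrl replicate 1 and -0.26 without Ctrl replicate 2. *Ccdc85b*, on the opposite strand, shares 1163 of the 2033 exon bases of *Fosl1* and had 7.61, 5.93 and 5.61 CPM in Ctrl and 5.12, 6.12 and 5.19 CPM in TKO. Reads of the pair cannot be told apart if strand was not used in counting, and the dip of *Fosl1* in Ctrl replicate 2 was not seen in *Ccdc85b*.

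*Fosl2* encodes Fra-2, the other Fos protein without that domain, which is known for its part in epidermal differentiation. Its CPM was 702.1, 569.6 and 781.3 in Ctrl and 547.0, 494.0 and 715.5 in TKO. TKO replicate 3, the lowest TKO library for the other 8 factors tested, was here the highest TKO library. By replicate number TKO was below Ctrl in all 3 pairs, as it was for 13.8% of all genes tested, and no other factor tested had 1 direction in all 3. TKO differed from Ctrl by a log2 fold change of -0.23 ± 0.19 (SE), with a 95% interval from -0.64 to 0.19 (edgeR unadjusted p = 0.254, adjusted p = 1), the narrowest of the 9. With the replicate block it was -0.23 ± 0.14 (edgeR adjusted p = 0.838). Without TKO replicate 3 it was -0.40 ± 0.17, with an unadjusted p of 0.0462 and an adjusted p of 0.473 by edgeR's quasi-likelihood test. Other omissions brought it nearer to 0, with -0.12 ± 0.20 without Ctrl replicate 3 and -0.12 ± 0.21 without TKO replicate 2.

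**Figure D1:**
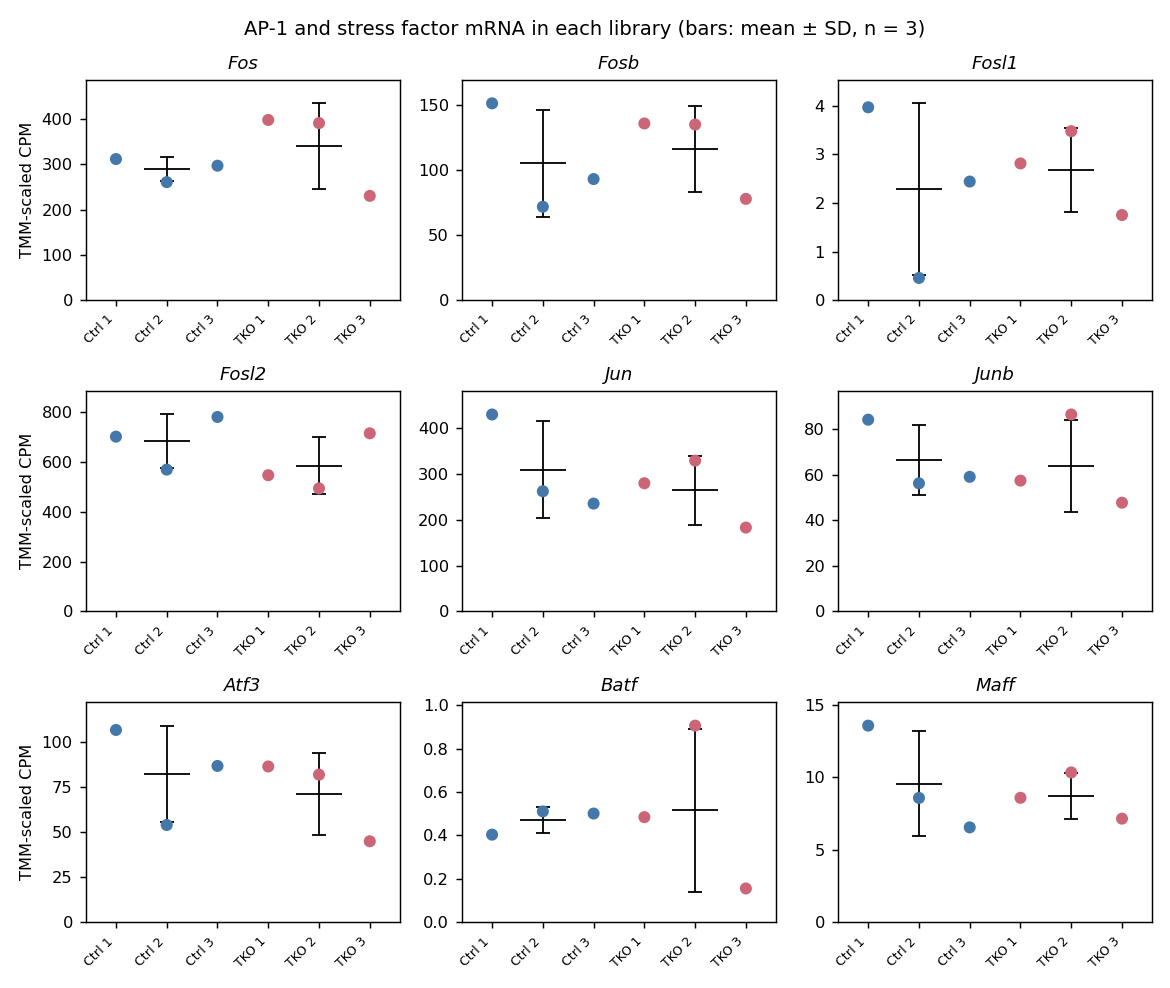
TMM-scaled CPM of the 9 factors tested (vertical axes from 0, each with its own range) in the 3 Ctrl (blue) and 3 TKO (red) libraries, with the group mean and SD in black. No factor separates the groups, and TKO replicate 3 is the lowest TKO library in 8 of 9 panels, the exception being *Fosl2* with 715.5 CPM.

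Of the Jun family, *Jun* encodes c-Jun, a partner of all Fos proteins and the target of Jun N-terminal kinases. Its CPM was 430.4, 262.5 and 235.5 in Ctrl and 280.0, 329.5 and 183.1 in TKO. Ctrl replicate 1 and TKO replicate 2 were the 2 highest libraries and TKO replicate 3 the lowest. A log2 fold change of -0.23 ± 0.27 (SE) was fitted, with a 95% interval from -0.82 to 0.36 (edgeR unadjusted p = 0.410, adjusted p = 1), and it was 0.08 without Ctrl replicate 1. The antisense gene *Junos* shares 528 of the 3189 exon bases of *Jun* and had between 1.01 and 3.92 CPM, far below *Jun* itself.

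*Junb*, a weaker activator that restrains c-Jun and limits inflammation in skin, had 84.1, 56.1 and 59.0 CPM in Ctrl and 57.3, 86.4 and 47.7 CPM in TKO. The same 2 libraries were high, and in the 4 others *Junb* stayed between 47.7 and 59.0 CPM. The difference in TKO was -0.06 ± 0.23 (SE) on the log2 scale, with a 95% interval from -0.58 to 0.46 (edgeR unadjusted p = 0.808, adjusted p = 1). *Prdx2*, on the opposite strand, shares 173 of the 2381 exon bases of *Junb*. It had 317.9, 318.6 and 289.1 CPM in Ctrl and 252.8, 267.2 and 368.0 CPM in TKO, above *Junb* in every library. Its part in the *Junb* counts was not tested.

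*Jund*, the Jun gene that is usually expressed steadily and broadly, was listed with 9, 1 and 0 counts in Ctrl and 2, 3 and 0 counts in TKO and did not pass the filter. At this depth 5 of the 6 libraries were at or under the floor of 3 counts. In the annotation 877 of its 1667 exon bases are shared with *Gm11175* on the opposite strand, which had between 3 and 16 counts. How reads on overlapping genes were assigned is not given in the sources used here, so these counts are given as listed and not read as a level of *Jund* mRNA.

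**Figure D2:**
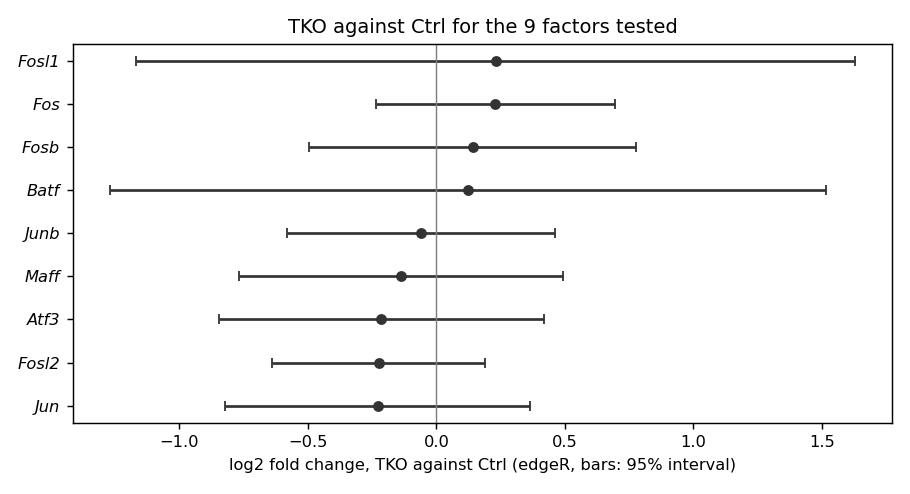
Log2 fold change in TKO against Ctrl by edgeR (horizontal axis, points) with its 95% interval (bars) for the 9 factors tested. All 9 intervals contain 0, and they are widest for *Fosl1* (-1.17 to 1.63) and *Batf* (-1.27 to 1.52) and narrowest for *Fosl2* (-0.64 to 0.19).

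Of the factors that join AP-1, *Atf3* encodes a stress-induced partner of Jun proteins. Its CPM was 106.9, 54.1 and 86.9 in Ctrl and 86.6, 82.1 and 45.1 in TKO. Ctrl replicate 2 and TKO replicate 3 were low, and the other 4 libraries lay between 82.1 and 106.9 CPM. TKO differed from Ctrl by a log2 fold change of -0.21 ± 0.28 (SE), with a 95% interval from -0.85 to 0.42 (edgeR unadjusted p = 0.468, adjusted p = 1).

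*Maff*, a small Maf protein without a transactivation domain that pairs with CNC factors such as Nrf2, had 13.6, 8.59 and 6.56 CPM in Ctrl and 8.60, 10.3 and 7.16 CPM in TKO. Its 2 highest libraries were those of *Jun*, Ctrl replicate 1 and TKO replicate 2. A log2 fold change of -0.14 ± 0.28 (SE) was fitted, with a 95% interval from -0.77 to 0.49 (edgeR unadjusted p = 0.637, adjusted p = 1).

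*Batf*, best known as a partner of Jun proteins in lymphocytes, was close to the lower end of detection, with 40, 66 and 54 counts in Ctrl and 57, 100 and 19 counts in TKO. This was 0.404, 0.511 and 0.501 CPM in Ctrl and 0.484, 0.905 and 0.156 CPM in TKO. The Ctrl libraries agreed closely, while TKO replicates 2 and 3 were the highest and the lowest of all 6. The difference in TKO was 0.12 ± 0.62 (SE) on the log2 scale, with a 95% interval from -1.27 to 1.52 (edgeR unadjusted p = 0.846, adjusted p = 1). Summed immune cell markers, led by *Csf1r*, were 27.8, 49.7 and 17.1 CPM in Ctrl and 11.5, 87.1 and 24.0 CPM in TKO. They were also highest in TKO replicate 2 and second in Ctrl replicate 2, as *Batf* was. The lower ranks differed, since the marker sum was lowest in TKO replicate 1 and *Batf* in TKO replicate 3. The part of these markers in the *Batf* values was not tested.

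For each of the 9 factors the SD within groups exceeded the absolute log2 fold change between them. This SD takes no account of replicate numbers, by which the log2 ratios of *Fosl2* were -0.36, -0.21 and -0.13. The SD of log2 (CPM + 0.5) within groups was 0.87 for *Fosl1*, 0.51 for *Atf3*, 0.50 for *Fosb* and 0.45 for *Jun*, beside a median of 0.23 over 14052 genes with at least 1 CPM. *Fosl1* exceeded 98.7%, *Atf3* 90.7%, *Fosb* 90.3% and *Jun* 86.7% of those genes. *Maff*, *Junb* and *Fos* exceeded 82.3%, 80.4% and 73.2%. *Fosl2* was the steadiest of the 8 factors at that level, exceeding 57.0% of genes.

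The libraries that were high or low in their group recurred among the factors. Ctrl replicate 1 was the highest Ctrl library for 7 of the 9 factors, beside 31.7% of all genes tested. TKO replicate 3 was the lowest TKO library for 8 of the 9, beside 42.0% of all genes tested, and Ctrl replicate 2 was the lowest Ctrl library for 6 of the 9, beside 39.0%. Among 31 other immediate early genes Ctrl replicate 1 was the highest Ctrl library for 17 (54.8%) and Ctrl replicate 2 the lowest for 17 (54.8%). TKO replicate 3, however, was the lowest TKO library for 12 of these 31 (38.7%) and the highest for 14 (45.2%). Its low position among TKO libraries was therefore not shared by this list as it was by the AP-1 factors, and the difference between the lists was not tested.

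**Figure D3:**
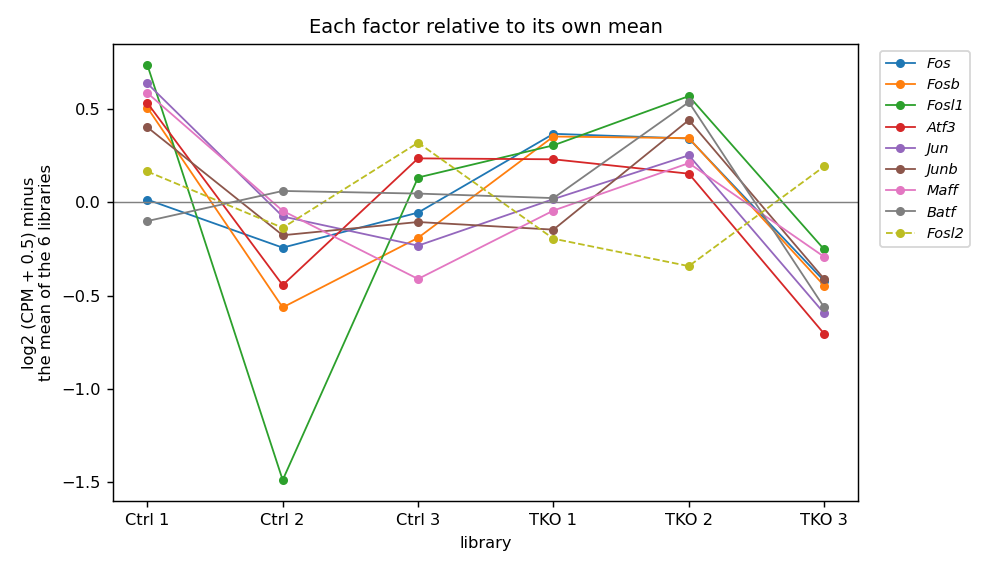
Log2 (CPM + 0.5) of each factor tested minus its own mean over the 6 libraries (vertical axis) for each library (horizontal axis). Lines only join the points of a factor, since replicates have no order, and the dashed line is *Fosl2*. *Fosl1* drops furthest, in Ctrl replicate 2, and 8 of the 9 factors lie below their mean in TKO replicate 3.

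Over the 6 libraries the 36 pairs of the 9 factors had a median Pearson's r of 0.59 in log2 (CPM + 0.5), from -0.67 to 0.92, and 29 pairs were positive. How these values compare with pairs of other genes was not tested. With group means taken out the median was 0.66 and again 29 pairs were positive, so the relation was also present within groups. The median was 0.42 without TKO replicate 3 and at most 0.68 without any other single library. The exact permutation test, two-sided, gave 5 pairs an unadjusted p under 0.05, and no pair passed Benjamini-Hochberg adjustment over the 36 pairs, where the smallest adjusted p was 0.100. The smallest p that 6 libraries allow is 0.00139.

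*Jun* and *Maff* were the pair most alike, with r = 0.92 (exact permutation p = 0.00972, adjusted p = 0.175) and Spearman's rho = 0.94 (exact permutation p = 0.0167, adjusted p = 0.300), and r was 0.95 without the 2 libraries farthest from the median of *Jun*. *Jun* and *Junb* had r = 0.90 (exact permutation p = 0.0194, adjusted p = 0.188), rho = 0.77 (exact permutation p = 0.103, adjusted p = 0.350) and r = 0.82 without 2 libraries. *Fosb* and *Fosl1* had r = 0.87 (exact permutation p = 0.00278, adjusted p = 0.100), rho = 0.94 (exact permutation p = 0.0167, adjusted p = 0.300) and r = 0.85 without 2 libraries. Leaving out the libraries farthest from the median of 1 gene narrows its range and leaves few points. Such values, here and for the pairs below, do not decide whether a relation is stable.

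*Fosb* and *Atf3* had r = 0.86 (exact permutation p = 0.0208, adjusted p = 0.188) and rho = 0.77 (exact permutation p = 0.103, adjusted p = 0.350), and r was 0.44 without 2 libraries. *Junb* and *Maff* had r = 0.82 (exact permutation p = 0.0486, adjusted p = 0.281) and rho = 0.60 (exact permutation p = 0.242, adjusted p = 0.395), and r was 0.15 without 2 libraries. *Fosl2* ran apart from the rest, with a median r of -0.31 with the 8 others and its lowest value, -0.67, with *Batf* (exact permutation p = 0.144, adjusted p = 0.325).

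**Figure D4:**
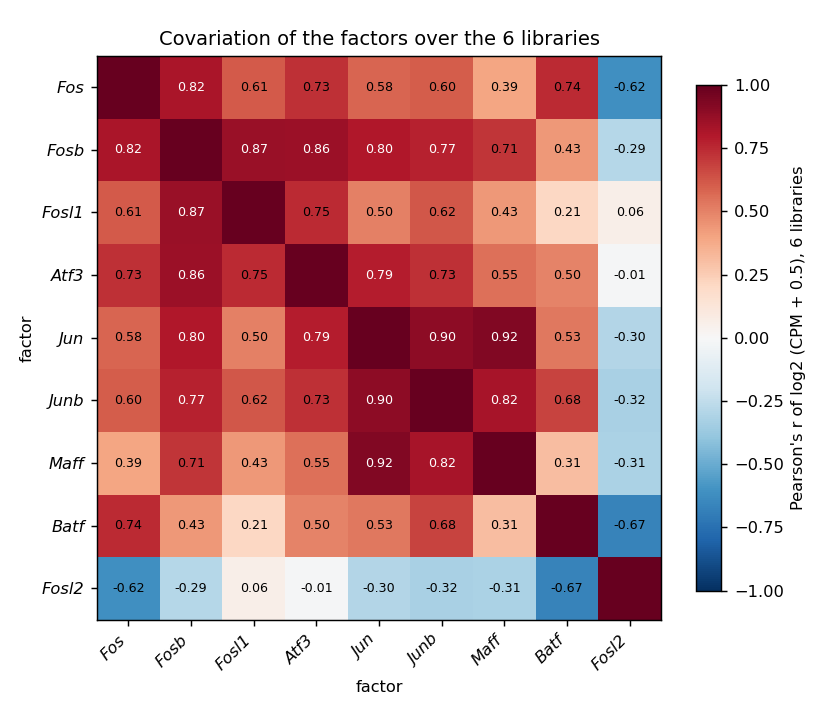
Pearson's r of log2 (CPM + 0.5) over the 6 libraries for each pair of the 9 factors (rows and columns, red positive, blue negative). The block of *Jun*, *Junb* and *Maff* reaches 0.92, and the row of *Fosl2* is negative or near 0 throughout, from -0.67 to 0.06.

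The libraries in which these factors were high included both with the letter F in their label, 1 in each group, and the comparison of F with M was added after this had been seen. With group in the model, *Jun* was higher in F by 0.65 ± 0.20 on the log2 scale (SE, edgeR quasi-likelihood unadjusted p = 0.00913, adjusted p = 1) and *Junb* by 0.63 ± 0.15 (unadjusted p = 0.00214, adjusted p = 1). *Maff* was higher by 0.62 ± 0.24 (edgeR unadjusted p = 0.0287, adjusted p = 1) and *Fosb* by 0.62 ± 0.24 (unadjusted p = 0.0315, adjusted p = 1). Over all 20622 genes 0.790% were higher and 0.810% lower in F at an unadjusted p under 0.05. Since the contrast was chosen on the values of these same factors, which also covary, nothing is read from their 4 of 9. No factor was called after edgeR's Benjamini-Hochberg adjustment, which called 5 genes or 0.0242%. *Fos* differed by 0.24 ± 0.22 and *Fosl2* by -0.14 ± 0.21. Only 2 libraries carried the letter F, so the letter and those embryos or libraries cannot be told apart.

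Other values moved with the same libraries. Summed fibroblast markers, led by *Col1a1*, were 1207, 3371 and 3021 CPM in Ctrl and 2171, 2570 and 2819 CPM in TKO, lowest in Ctrl replicate 1, where 5 of the 9 factors were highest. Summed red blood cell markers, led by *Hba-a1*, were also lowest there, at 20.1 CPM beside 65.4 to 141.2 CPM in the other libraries. The 3 most abundant identifiers that were not found in the annotation took 13.2%, 11.4% and 8.86% of counts in Ctrl and 11.6%, 10.1% and 5.65% in TKO, most in Ctrl replicate 1 and least in TKO replicate 3. Mitochondrial genes took 1.53%, 2.48% and 2.26% in Ctrl and 1.89%, 2.04% and 2.89% in TKO, least in Ctrl replicate 1 and most in TKO replicate 3. The part of these quantities in the pattern of the AP-1 factors was not tested.

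Among 12290 other protein-coding genes with at least 1 CPM, the 5 whose log2 (CPM + 0.5) followed *Fos* most closely over the 6 libraries were *Mcm10*, *Aebp2*, *Mark3*, *Zfp3* and *Clcn3*. Their r with *Fos* was between 0.981 and 0.995, and 122 genes exceeded 0.9. *Mcm10*, a replication factor, had 30.4, 26.2 and 28.2 CPM in Ctrl and 34.5, 34.2 and 23.9 CPM in TKO. It had the order of *Fos*, with 2 TKO libraries above and 1 below every Ctrl library. The 5 that followed *Fosl1* were *Ttyh1*, *Eif4g1*, *Dtnb*, *Ipo4* and *Dusp4*, with r between 0.986 and 0.997, and 111 genes exceeded 0.9. *Dusp4*, a phosphatase of MAP kinases, had 2.95, 1.19 and 2.38 CPM in Ctrl and 2.41, 3.12 and 2.12 CPM in TKO, lowest in Ctrl replicate 2 as *Fosl1* was. With 6 libraries such values are a description of likeness. How many genes exceed 0.9 for an unrelated gene was not tested, so the counts of 122 and 111 are not read as co-expressed sets.

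The pathway around AP-1 was read from 7 gene lists, and none of their genes was called by edgeR's quasi-likelihood test at an adjusted p under 0.05. Shares of list genes at an unadjusted p under 0.05 stand beside 4.06% higher and 2.02% lower over all genes tested, and groups did not overlap for 6.35% higher and 5.11% lower. With DESeq2, which called 1.26% of 20613 genes, 5 list genes were called, namely *Bach2*, *Ccn2*, *Sprr1b*, *Krt6b* and *Herpud1*. With no low-count filter edgeR called 0.879% of 39690 genes, and 8 of the list genes. No AP-1 factor was called either way.

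Among the other bZIP factors 26 of 27 were tested, with 2 higher and 1 lower at an unadjusted p under 0.05 (7.69% and 3.85%) and a median log2 fold change of -0.06. *Bach2*, a repressor that pairs with small Maf proteins, had 15.3, 14.5 and 22.1 CPM in Ctrl and 28.3, 40.5 and 39.9 CPM in TKO. All 3 TKO libraries lay above all Ctrl libraries, with a log2 fold change of 1.07 ± 0.21 (edgeR adjusted p = 0.160, DESeq2 adjusted p = 0.000666). *Atf5*, a stress-responsive ATF factor, had 79.0, 55.7 and 63.8 CPM in Ctrl and 45.04, 39.2 and 47.5 CPM in TKO, with a log2 fold change of -0.59 ± 0.16 (edgeR adjusted p = 0.350). *Nfe2l2*, which encodes Nrf2, had a log2 fold change of 0.36 ± 0.15 and overlapping groups (edgeR adjusted p = 0.786).

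Of 21 genes upstream of AP-1, the kinases, receptor and serum response factors that switch it on or destroy it, 18 had a positive and 3 a negative log2 fold change, with a median of 0.10. Over all genes tested 10706 of 20622 were positive, and the difference in shares was not tested. Only *Egfr*, the receptor for epidermal growth factor, had an unadjusted p under 0.05 (4.76% of the list). It had 256.8, 307.0 and 287.8 CPM in Ctrl and 381.9, 416.3 and 333.5 CPM in TKO, all TKO libraries above all Ctrl libraries (log2 fold change 0.41 ± 0.14, edgeR adjusted p = 0.659). *Elk3*, a partner of serum response factor, had a log2 fold change of 0.50 ± 0.30 and *Fbxw7*, a ligase subunit that targets c-Jun, of 0.26 ± 0.16. The groups overlapped for both.

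Of 31 other immediate early genes, 18 had a positive and 13 a negative log2 fold change, with a median of 0.08, and 1 was higher at an unadjusted p under 0.05 (3.23%). This was *Ccn2*, which encodes a matrix-associated growth regulator, with 6.90, 10.6 and 8.05 CPM in Ctrl and 14.1, 31.0 and 12.5 CPM in TKO. Every TKO library lay above every Ctrl library, TKO replicate 2 the furthest (log2 fold change 1.18 ± 0.34, edgeR adjusted p = 0.412, DESeq2 adjusted p = 0.0345). *Dusp2*, a MAP kinase phosphatase, had a log2 fold change of -0.81 ± 0.41 and *Ccn1*, a relative of *Ccn2*, of 0.29 ± 0.17.

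Of 14 heat shock genes, the chaperones and their regulator, 1 was lower at an unadjusted p under 0.05 (7.14%), and the median log2 fold change was 0.07. *Hspa4l* had 3.93, 6.30 and 3.79 CPM in Ctrl and 3.04, 2.39 and 2.52 CPM in TKO, all TKO libraries below all Ctrl libraries (log2 fold change -0.82 ± 0.30, edgeR adjusted p = 0.702). *Hsph1* had a log2 fold change of 0.25 ± 0.26. *Hsp90aa1* had 0.30 ± 0.37, with 244.8, 483.8 and 220.6 CPM in Ctrl and 435.2, 520.0 and 210.6 CPM in TKO.

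The integrated stress response genes are targets of Atf4 and of the endoplasmic reticulum stress pathway. Of 18 tested, 15 had a negative log2 fold change, beside 9916 of 20622 over all genes tested, and 4 (22.2%) were lower and 1 (5.56%) higher at an unadjusted p under 0.05. The median was -0.23, but -0.12 without Ctrl replicate 1 and -0.32 without Ctrl replicate 3. *Herpud1*, a protein of endoplasmic reticulum associated degradation, had 44.0, 32.8 and 42.0 CPM in Ctrl and 23.6, 19.9 and 23.6 CPM in TKO. No TKO library reached the lowest Ctrl library (log2 fold change -0.82 ± 0.16, edgeR adjusted p = 0.158, DESeq2 adjusted p = 0.00133). *Chac1*, which degrades glutathione, had 1.20, 0.255 and 2.96 CPM in Ctrl and 0.162, 0.0453 and 0.403 CPM in TKO, and the groups overlapped (log2 fold change -2.84 ± 0.93, edgeR adjusted p = 0.578). In each of the 3 same-numbered pairs TKO was below Ctrl, and with the replicate block the log2 fold change of *Chac1* was -2.77 ± 0.46 (edgeR adjusted p = 0.0782). Its value in TKO replicate 2 lay near the floor, which was 0.0275 CPM in that library. With the same block *Herpud1* had -0.82 ± 0.14 (edgeR adjusted p = 0.0793) and *Bach2*, of the other bZIP factors, 1.07 ± 0.17 (edgeR adjusted p = 0.0579). *Trib3*, a pseudokinase induced by Atf4, had a log2 fold change of -0.86 ± 0.34 (edgeR adjusted p = 0.736). The 1 higher gene, *Slc7a11*, a cystine transporter, had 31.9, 50.9 and 56.0 CPM in Ctrl and 131.2, 109.9 and 37.3 CPM in TKO, so TKO replicate 3 stood apart from its group as it did for *Fos*. Its log2 fold change was 1.004 ± 0.414 (edgeR adjusted p = 0.786), and 0.87 ± 0.59 with the replicate block (edgeR adjusted p = 0.895). It was called only when TKO replicate 3, the TKO library that went the other way, was left out (1.38 ± 0.22, edgeR adjusted p = 0.0463).

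Of 30 genes known as AP-1 targets in keratinocytes, 23 passed the filter, 10 with a positive and 13 with a negative log2 fold change and a median of -0.03. At an unadjusted p under 0.05, 3 were higher (13.0%) and none lower. *Sprr1b*, a cornified envelope precursor, had 1.28, 0.975 and 2.63 CPM in Ctrl and 6.35, 18.9 and 4.20 CPM in TKO (log2 fold change 2.59 ± 0.58, edgeR adjusted p = 0.214, DESeq2 adjusted p = 5.62e-05). *Krt6b*, a keratin of wounded epidermis, had 0.394, 0.356 and 0.408 CPM in Ctrl and 0.926, 3.70 and 0.888 CPM in TKO (log2 fold change 2.25 ± 0.60, edgeR adjusted p = 0.342, DESeq2 adjusted p = 0.0165). Both were above every Ctrl library in all 3 TKO libraries, and TKO replicate 2 was far the highest. *Cdkn1a*, which encodes the cell cycle inhibitor p21, had 86.0, 80.5 and 78.2 CPM in Ctrl and 104.5, 203.4 and 77.9 CPM in TKO, with overlapping groups (log2 fold change 0.66 ± 0.29, edgeR adjusted p = 0.813). TKO replicate 3 was the lowest TKO library for these 3 genes, but over the whole list it was the lowest for 11 of 23 (47.8%) and the highest for 11 of 23 (47.8%), beside 42.0% and 37.3% of all genes tested. Groups did not overlap for 3 of the 23 genes higher in TKO and for 1 lower, beside 6.35% and 5.11% of all genes tested. The lower gene, *Krt16*, another keratin, had 19.5, 18.6 and 18.1 CPM in Ctrl and 11.1, 16.3 and 17.3 CPM in TKO (log2 fold change -0.33 ± 0.19, edgeR adjusted p = 0.979).

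Of 12 targets of Nrf2 and small Maf dimers, 6 had a positive and 6 a negative log2 fold change, with a median of 0.07, and 3 (25.0%) were higher at an unadjusted p under 0.05. *Gclm*, a subunit of the enzyme that starts glutathione synthesis, had 20.5, 25.1 and 26.6 CPM in Ctrl and 28.8, 38.3 and 32.1 CPM in TKO (log2 fold change 0.46 ± 0.17, edgeR adjusted p = 0.687). *Txnrd1*, a thioredoxin reductase, had a log2 fold change of 0.40 ± 0.15 (edgeR adjusted p = 0.725). *Gsta4*, a glutathione transferase, had 0.52 ± 0.23 (edgeR adjusted p = 0.818) with overlapping groups.

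**Figure D5:**
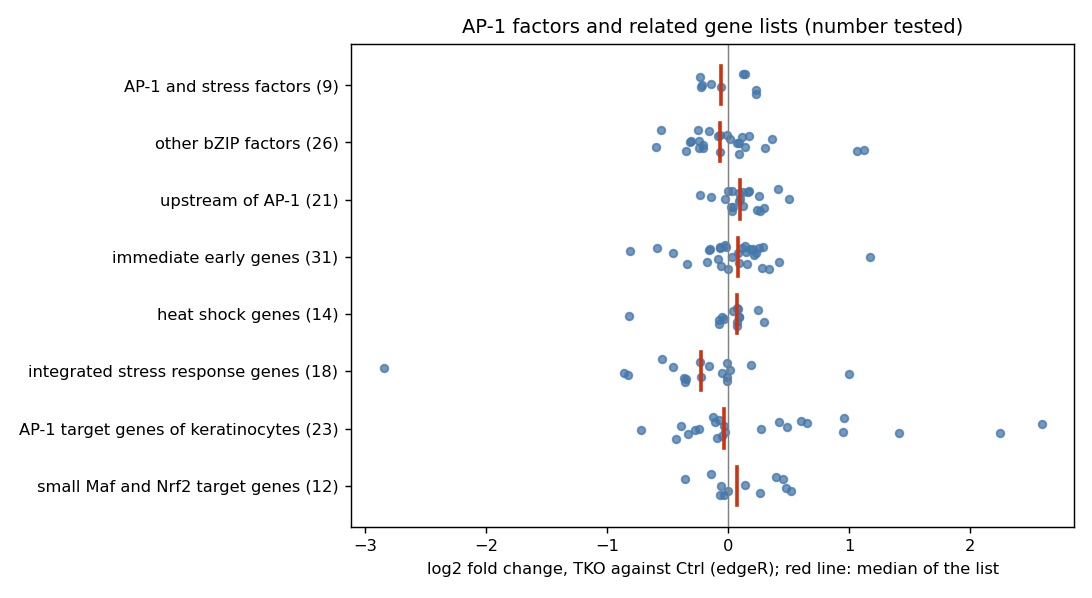
Log2 fold change in TKO against Ctrl by edgeR (horizontal axis) for each gene tested of the AP-1 and stress factors and of 7 related lists (rows, number tested in brackets), with the list median in red. The 9 factors lie between -0.23 and 0.23, while single genes of other lists reach -2.84 (*Chac1*) and 2.59 (*Sprr1b*).

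Markers of other cell types were summed as CPM in each library. Summed Merkel cell markers, led by *Krt8*, were 7.10, 8.34 and 7.14 CPM in Ctrl and 2.45, 1.49 and 2.58 CPM in TKO, and none of the 5 was at 0 in all libraries. Skeletal muscle markers, led by *Ttn*, were 3.23, 10.5 and 6.47 CPM in Ctrl and 31.7, 31.8 and 33.0 CPM in TKO. Endothelial markers, led by *Cdh5*, were 25.3, 24.9 and 34.9 CPM in Ctrl and 23.8, 61.1 and 47.5 CPM in TKO. Hair follicle markers, led by *Krt17*, were 958.4, 987.2 and 911.8 CPM in Ctrl and 847.1, 1114 and 1302 CPM in TKO. Melanocyte markers, led by *Mitf*, were between 6.36 and 13.1 CPM and Schwann and nerve markers, led by *Sox10*, between 2.08 and 7.23 CPM. Of single genes, 4 of the 4 Merkel cell markers tested were lower and 2 of the 6 muscle markers higher with groups that did not overlap, beside 5.11% lower and 6.35% higher over all genes tested. Of the 7 differentiating keratinocyte markers 2 were lower without overlap, *Krt1* and *Krt10*, and of the 8 basal markers *Krt15* was lower and *Itgb4* higher. Single markers of melanocytes (*Mlana*), immune cells (*Cd74*) and the hair follicle (*Lef1*) were higher without overlap. *Mlana*, a melanosome protein, had 0.141, 0.0155 and 0.167 CPM in Ctrl and 0.994, 1.53 and 0.304 CPM in TKO (edgeR adjusted p = 0.360). The groups overlapped for the melanocyte markers *Dct*, *Pmel*, *Mitf* and *Tyrp1*, with log2 fold changes of 0.43, 0.33, 0.13 and -1.21. *Myh3*, an embryonic muscle myosin, was the only marker called, with a log2 fold change of 2.61 ± 0.34 (edgeR adjusted p = 0.0211). Its call was lost with sex as a factor (adjusted p = 0.0533) and when any library but TKO replicate 3 was left out (adjusted p from 0.0595 to 0.122). The log2 fold change of *Myh3* stayed between 2.46 and 2.75 in these settings. *Ttn*, with an edgeR adjusted p of 0.181, made up 26.1, 22.1 and 20.9 CPM of the muscle sum in TKO.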

How the data were processed

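Bulk RNA-seq was performed on rRNA-depleted total RNA from 3 Ctrl and 3 TKO samples of sorted basal keratinocytes by paired-end sequencing. The authors deposited raw counts per Ensembl gene, without normalization or pooling. Reads were trimmed with fastp and aligned with STAR. The submitters' processing notes name GRCm38 and the study's methods GRCm39. The counting program, its annotation and its use of strand are not given in the sources used here. Symbols and exon lengths came from GENCODE vM39 by gene identifier (51477 of 55536 matched), and promoters from RefSeq GRCm38.p6, so coordinates are of that build and exon lengths may differ from those counted.

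Groups were compared in edgeR 4.0.16 (R 4.3.3): filterByExpr (minimum count 10, minimum total 15), TMM scaling, glmQLFit (robust) and glmQLFTest, with Benjamini-Hochberg adjustment and no fold threshold. The script was tested on simulated data. CPM refers to TMM-scaled library sizes, except for the floor of 3 counts, which was scaled to library totals without TMM. Correlations used log2 (CPM + 0.5), and *Jund*, under the filter, left 36 pairs. DESeq2 1.42.0, scipy 1.17.1 and matplotlib 3.10.9 were also used. Alternatives were RLE size factors, DESeq2, no filter, 10 counts or more in each library, the replicate number as a block, the sex letter as a factor, non-robust estimation, library sizes from annotated genes, a fold threshold (absolute log2 fold change above 1) and each of the 6 libraries left out.

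Nothing in the labels says that replicate numbers mark shared litters or days. In the data, deviations from the group means over all genes had r = 0.188, 0.187 and 0.272 between same-numbered Ctrl and TKO samples. For different numbers r ran from -0.243 to 0.0191. Deviations from a group mean cancel out within each group, so the values for same and different numbers are not independent of each other. Whether same-numbered samples are paired was not tested. The p-values of the main fit take no account of replicate numbers, and the replicate block is given as an alternative. Where nothing says that samples are separate embryos, p-values measure the spread between these samples only.

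The factors and lists were chosen with earlier results of these data known. All 10 factors are named, with the 3 genes of smallest unadjusted p and every called gene of each pathway list, the 5 genes most like *Fos* and *Fosl1*, and the most abundant gene of each marker list. *Slc7a11*, *Krt16*, *Myh3*, the other markers whose groups did not overlap, the other melanocyte markers, the deleted genes and *Xist* were added to these after values had been seen.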

Additional observations from a re-analysis of the deposited data

How the results depend on the processing

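No AP-1 or stress factor was called under any of the 15 alternatives. The number of genes called among all tested moved from 27 to 259 with DESeq2, 349 with no low-count filter, 9 with at least 10 counts in every library and 45 with the replicate block, and lay between 7 and 83 with a library left out, the highest without TKO replicate 3. The replicate block changed no call of a factor, of a gene named from the pathway lists, or of *Myh3* (adjusted p = 0.0315). Directions of factors were not stable when a library was left out, and the log2 fold changes turned as follows. Without Ctrl replicate 1, *Jun* was 0.08, *Junb* 0.15, *Atf3* 0.01 and *Maff* 0.20. Without Ctrl replicate 2, *Fosb* was -0.07 and *Fosl1* -0.26. *Junb* was 0.00 without TKO replicate 1, and without TKO replicate 2 *Fosl1* was -0.00 and *Batf* -0.56. Without TKO replicate 3, *Junb* was 0.11 and *Atf3* 0.03. *Batf* was also -0.14 with the replicate block and -0.06 with sex as a factor. The cause of these turns was not tested. With each library left out *Fos* stayed positive (0.09 to 0.44) and *Fosl2* negative (-0.40 to -0.12), while *Fosb* ranged from -0.07 to 0.49, *Fosl1* from -0.26 to 0.89, *Jun* from -0.42 to 0.08, *Junb* from -0.34 to 0.15, *Atf3* from -0.44 to 0.03, *Batf* from -0.56 to 0.55 and *Maff* from -0.35 to 0.20. The median correlation of the factors was between 0.42 and 0.68 with a library left out, the lowest without TKO replicate 3. With no low-count filter *Bach2*, *Atf5*, *Ccn2*, *Herpud1*, *Chac1*, *Sprr1b*, *Krt6b* and *Cdkn1a* were called by edgeR. With 1 library left out, the median log2 fold change of 6 of the 7 lists moved by at least 1 SD of that list's median between replicates, and that of the genes upstream of AP-1 stayed within it (0.06 to 0.14). Without TKO replicate 1 the median was 0.02 for other bZIP factors and 0.24 for Nrf2 targets, without TKO replicate 2 it was -0.06 for immediate early and for heat shock genes, without Ctrl replicate 2 it was 0.20 for AP-1 targets, and for integrated stress response genes it was -0.12 without Ctrl replicate 1 and -0.32 without Ctrl replicate 3. With 3 samples per group, the 95% interval of the least precise factor, *Fosl1*, ran from a TKO to Ctrl ratio of 0.445 to 3.09.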
